A study of Mus musculus with 15 samples.

Results

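The 10 genes described here code for products of the integrated stress response and for brakes on the growth kinase complex mTORC1: Trib3, Ddit4, Sesn2, Sesn3, Eif4ebp1, Eif4ebp2, Stc2, Vldlr, Gdf15 and Nupr1. They were taken by name and not by a filter on their values, although earlier results of these data were known. All 10 were found among the 78317 genes counted, of which 20269 had enough counts to be tested. Their messenger RNA was measured by RNA-seq in the ventricles of E11.5 mouse embryos (C57BL/6) in which Atf4 can be deleted by Xmlc2-Cre, a Cre recombinase active in cardiomyocytes, so that the other cells of the ventricle keep the gene. In the first line, called CDS, exons 2 and 3 of Atf4 lie between loxP sites and the polyadenylation signal is kept. In the second, called PAS, the loxP sites lie around that signal. By their labels, 4 libraries are CDS knockouts, 4 are CDS controls, 4 are PAS knockouts and 3 are PAS controls. All carry the batch label 1, embryos received no treatment, and the Cre and loxP genotype of the controls is not given beyond the word control. The design text names 4 biological replicates per genotype and ventricular tissue, but the extraction protocol attached to the same libraries speaks of cortical neurons in culture.

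ATF4 is a transcription factor whose protein is made when the kinases of the integrated stress response slow general translation. It switches on genes of amino acid supply, and with them genes that hold back growth: TRIB3 binds the kinase AKT, DDIT4 (also called REDD1) acts through the TSC complex to lower mTORC1 activity, and sestrin 2 lowers it by binding the GATOR2 complex when leucine is scarce. The 4E-BPs, coded by Eif4ebp1 and Eif4ebp2, bind the cap-binding protein eIF4E and block the start of translation until mTORC1 phosphorylates them. In the heart, GDF15 is known as a hormone released under stress, and growth of the embryonic ventricle is known to depend on mTORC1.

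Of the 10 genes, 0 differed between knockouts and controls past the test in either line, while Atf4 itself moved strongly. Atf4 had 39.6, 48.1, 45.3 and 45.0 CPM in libraries labelled CDS knockout, against 114, 112, 116 and 115 CPM in those labelled CDS control. It had 304, 292, 288 and 259 CPM in libraries labelled PAS knockout, against 98.9, 92.2 and 100 CPM in those labelled PAS control. CPM stands for counts scaled to a common library size, here by the trimmed mean of M values. Atf4 counts thus fell in CDS knockouts, by 1.36 on the log2 scale (SE 0.05), and rose in PAS knockouts, with a log2 change of 1.56 ± 0.06 (SE); the p of edgeR's quasi-likelihood test, adjusted by Benjamini-Hochberg, was 1.25e-13 and 4.25e-14. Since the target gene went up in libraries labelled PAS knockout, and whole-gene counts do not show which exons or ends were present, the groups are named by their labels and every direction in the PAS line is that of libraries so labelled.

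The CDS line had total counts of 30376847 to 46472141 per library, the PAS line 22623499 to 29315724, and every CDS library was deeper than every PAS library. Cardiomyocyte markers (8 of 8 detected in each group) summed to 26000 to 29300 CPM in CDS knockouts, 28300 to 31200 CPM in CDS controls, 28900 to 30000 CPM in PAS knockouts and 28700 to 30600 CPM in PAS controls. Endothelial and endocardial markers (8 of 8 detected) summed to 1640 to 1750 CPM in CDS knockouts, below all CDS controls at 1780 to 1870 CPM, whereas PAS knockouts (1730 to 1830 CPM) overlapped PAS controls (1590 to 1860 CPM). The part of this difference in the CDS results was not tested. The 5 neural markers together stayed between 24.5 and 42.3 CPM, far below the cardiomyocyte sums. CDS knockouts 3 and 4 stood apart in the sum of 6 choroid plexus and liver markers, at 164 and 237 CPM beside 38.1 and 42.6 CPM in CDS knockouts 1 and 2, 33.8 to 66.8 CPM in CDS controls, 15.2 to 25 CPM in PAS knockouts (1 marker at 0) and 16.5 to 27.7 CPM in PAS controls. CDS knockout 3 also had the highest sum of 6 erythroid markers, 3970 CPM. CDS knockout 3 had the lowest cardiomyocyte and the highest neural sum as well, and the 3 replicate pairs that include it differed most in their counts, with a chi-square per degree of freedom of 48.2 to 62.1 beside at most 12.6 in any other pair. In whole ventricle, fewer cells of a type and less RNA per cell cannot be told apart.

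Promoter windows of the genes are shown first, because a known target site of ATF4, the C/EBP-ATF response element, can be looked for in them. The windows run from 250 bases before to 50 bases after a RefSeq start (300 bases, mouse build GRCm38.p6), and 9 of the 10 genes had one or more, 11 windows in all. The core TGATGNAA, searched on both strands, was found in windows of Trib3, Nupr1 and Vldlr. Among all 32851 windows of the table, 3.97% held it. The 3 windows are printed 5′ to 3′ on the strand of the gene, with the match in capitals; it reads TTACATCA or TTGCATCA because each match lies on the strand opposite to the gene.
Trib3: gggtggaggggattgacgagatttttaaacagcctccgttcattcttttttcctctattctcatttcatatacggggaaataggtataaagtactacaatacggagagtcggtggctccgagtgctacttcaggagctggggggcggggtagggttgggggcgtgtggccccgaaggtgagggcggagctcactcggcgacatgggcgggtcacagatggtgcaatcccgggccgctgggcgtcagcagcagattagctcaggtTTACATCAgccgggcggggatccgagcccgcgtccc
Nupr1: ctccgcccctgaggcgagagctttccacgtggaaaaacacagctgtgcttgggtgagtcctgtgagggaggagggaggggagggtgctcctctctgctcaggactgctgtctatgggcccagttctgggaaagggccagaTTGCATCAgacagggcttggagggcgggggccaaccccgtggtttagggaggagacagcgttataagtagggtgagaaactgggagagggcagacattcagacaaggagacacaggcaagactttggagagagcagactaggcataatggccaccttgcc
Vldlr: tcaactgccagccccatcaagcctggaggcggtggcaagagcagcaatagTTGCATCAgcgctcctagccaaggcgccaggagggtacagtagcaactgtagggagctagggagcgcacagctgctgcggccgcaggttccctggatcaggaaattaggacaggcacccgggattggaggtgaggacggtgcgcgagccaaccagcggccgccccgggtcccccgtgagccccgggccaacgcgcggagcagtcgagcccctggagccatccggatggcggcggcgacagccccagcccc
They lie at chr2:152344011-152344310 on the minus strand (Trib3), chr7:126625421-126625720 on the minus strand (Nupr1) and chr19:27216770-27217069 on the plus strand (Vldlr, the later of its pair of windows). Counted from the start of the transcript, the match begins at 14 in Trib3, at -110 in Nupr1 and at -200 in that Vldlr window.

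Other short motifs were searched on both strands in the same windows. ACGTG, the core of the hypoxia response element, was present in Ddit4, Eif4ebp2, Nupr1 and Gdf15, and in 19.6% of all windows. CCACGTG, an E-box core that contains ACGTG, was present in Nupr1 only among these genes and in 3.88% of all windows. The forkhead core TGTTTAC, present in 3.65% of all windows, was in none of the 11 windows of these genes. Such matches describe the letters in these windows and are not evidence of binding, and Eif4ebp1 could not be searched.

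The genes covered a wide range of levels. Per kilobase of exon, averaged over the 15 libraries, Eif4ebp2 stood highest at 37.8 ± 1.61 CPM per kb, followed by Eif4ebp1 at 23.6 ± 2.05, Ddit4 at 14.8 ± 1.57, Vldlr at 10.1 ± 1.44 and Sesn3 at 8.99 ± 0.3 CPM per kb (SD, n = 15). Lower levels were found for Sesn2 at 5.14 ± 0.352, Stc2 at 2.22 ± 0.338, Trib3 at 0.89 ± 0.264, Gdf15 at 0.283 ± 0.0671 and Nupr1 at 0.0676 ± 0.0366 CPM per kb (SD, n = 15). Ranges over libraries overlapped between Ddit4 (11.9 to 17.4 CPM per kb) and Vldlr (7.49 to 12.9 CPM per kb), and between Vldlr and Sesn3 (8.6 to 9.77 CPM per kb). The 4E-BP messages were thus the abundant ones, and the classical stress outputs Trib3, Gdf15 and Nupr1 were the lowest.

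**Figure D1:**
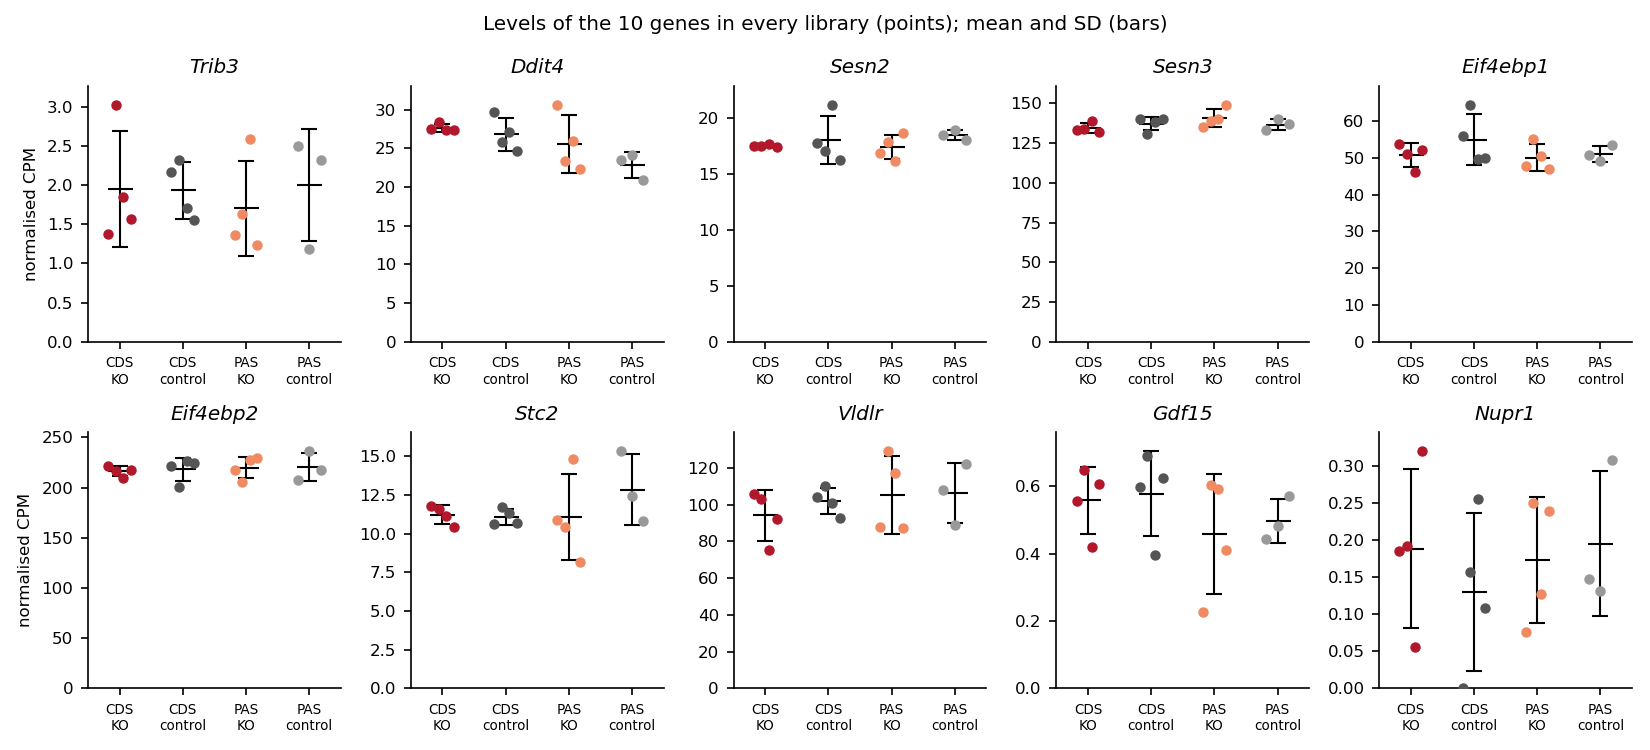
Normalised CPM (vertical axes, from 0) of each gene in every library (points) of CDS knockout, CDS control, PAS knockout and PAS control ventricles, with mean and SD as black bars. Knockout and control points overlap in all 10 panels, and the points of Vldlr, Stc2 and Trib3 are spread more widely than those of Sesn3 and Eif4ebp2.

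The first comparison set each knockout against the controls of its own line. In the CDS line 11 of 20269 genes passed edgeR's quasi-likelihood test at a Benjamini-Hochberg adjusted p under 0.05 (0.0543%), and none of the 9 genes of the group that could be tested was among them. In the PAS line 2 genes passed (0.00987%), again none of these 9. At an unadjusted p under 0.05 there were 532 genes in the CDS line, 1062 in the PAS line and 0 of the 9 in either. Libraries of knockout and control did not overlap for 567 genes in the CDS line (2.8%) and for 931 in the PAS line (4.59%), but overlapped for all 10 genes in both lines. Of the 9 log2 differences, 3 were positive and 6 negative in the CDS line, with a median of -0.03; in the PAS line 2 were positive and 7 negative, with a median of -0.03. The median over all tested genes was 0.00 in both lines. Without CDS knockouts 3 and 4 the CDS split turned to 6 positive and 3 negative, with a median of 0.04, and 9 genes passed over all, none of them from the group. DESeq2, limma-voom, DESeq2 size factors, a fit without the count filter and every fit with a library left out also called 0 of these genes.

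**Figure D2:**
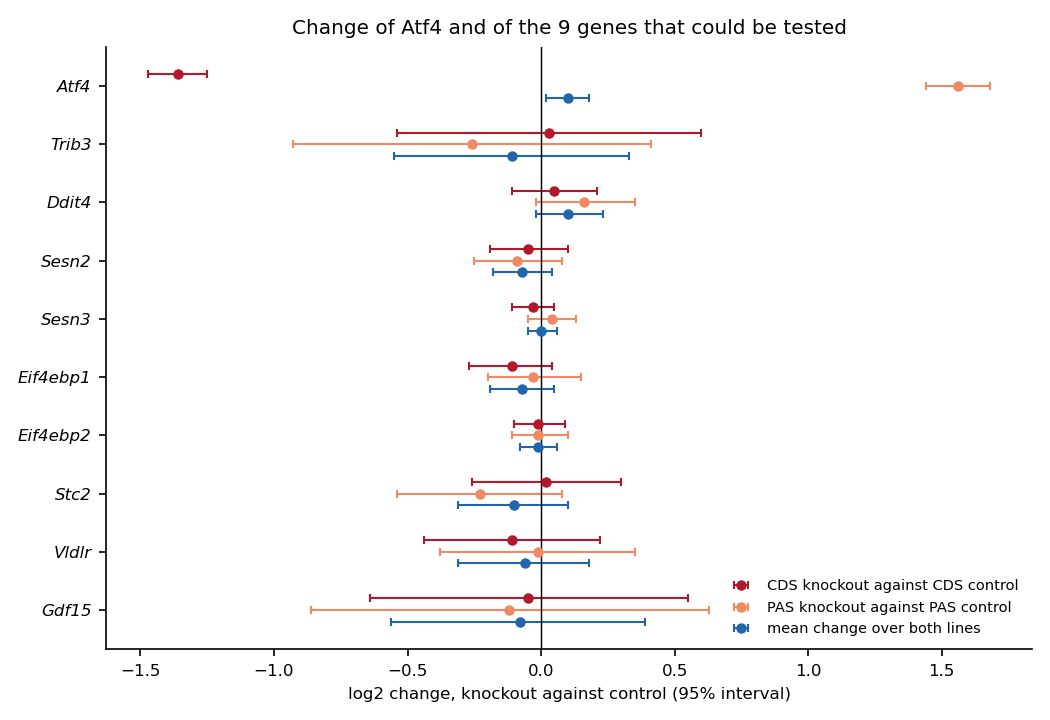
Log2 change of knockout over control (horizontal axis) with 95% intervals for Atf4 and the 9 tested genes, in the CDS line, in the PAS line and as the mean over both lines. Atf4 lies far to the left of 0 in the CDS line and far to the right in the PAS line. Its mean over both lines lies close to 0 (interval 0.02 to 0.18). All intervals of the 9 tested genes span 0.

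Trib3 codes for the pseudokinase TRIB3, a classical ATF4 output that also feeds back on ATF4. It lies on chromosome 2 from 152179342 to 152185952 on the minus strand (ENSMUSG00000032715.10, GRCm39). Its counts were 59, 126, 66 and 49 in CDS knockouts, against 65, 74, 60 and 72 in CDS controls, or 1.37, 3.02, 1.85 and 1.57 CPM against 2.16, 2.32, 1.70 and 1.55 CPM. In the PAS line counts were 36, 46, 61 and 36 in knockouts, against 68, 27 and 53 in controls, or 1.36, 1.63, 2.58 and 1.23 CPM against 2.50, 1.18 and 2.32 CPM. CDS knockout 2 was the highest of all 15 libraries and PAS control 2 the lowest, and the groups overlapped in both lines. The log2 change was 0.03 ± 0.27 (SE) in the CDS line, and -0.26 ± 0.32 for the PAS line, with 95% intervals of 0.689 to 1.52 and 0.526 to 1.33 as folds (Benjamini-Hochberg adjusted p = 1 and 0.992, edgeR's quasi-likelihood test). The values depended on single libraries: the CDS one was -0.27 without CDS knockout 2 and 0.18 without CDS knockout 1, and the PAS one was -0.52 without PAS knockout 3 or PAS control 2 and -0.06 without PAS control 1. None of these passed the test.

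Ddit4 codes for the mTORC1 inhibitor induced by stress, hypoxia and glucocorticoids. It lies on chromosome 10 from 59785491 to 59787656 on the minus strand (ENSMUSG00000020108.5). Levels were 27.5, 28.4, 27.4 and 27.3 CPM in CDS knockouts, against 29.7, 25.8, 27.1 and 24.7 CPM in CDS controls. They were 30.6, 23.3, 26.0 and 22.3 CPM in PAS knockouts, against 23.5, 24.1 and 20.9 CPM in PAS controls. The CDS knockouts lay within the range of their controls, whereas PAS knockouts 1 and 3 lay above every PAS control and the other two among them. The log2 change was 0.05 ± 0.08 (SE) in the CDS line, with a fold interval of 0.924 to 1.16, and 0.16 ± 0.09 in the PAS line, with 0.984 to 1.27 (Benjamini-Hochberg adjusted p = 1 and 0.986, edgeR's quasi-likelihood test). Over the alternatives the PAS value ran from 0.06 (without PAS knockout 1) to 0.22 (without PAS knockout 4, or with a block for the replicate number). An unadjusted p under 0.05 was reached in 4 of 13 alternatives, and the lowest Benjamini-Hochberg adjusted p was 0.811 (edgeR's quasi-likelihood test).

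Sesn2 and Sesn3 code for sestrins, proteins that restrain mTORC1; Sesn2 is induced by ATF4 and p53, and Sesn3 is known as a FoxO target. Sesn2 (ENSMUSG00000028893.9) lies on chromosome 4 from 132219343 to 132237812 on the minus strand and overlaps the model Gm12981 on the same strand. Its level was 17.5, 17.5, 17.7 and 17.4 CPM in CDS knockouts, against 17.8, 17.1, 21.2 and 16.3 CPM in CDS controls, and 16.9, 17.9, 16.2 and 18.7 CPM in PAS knockouts, against 18.5, 19.0 and 18.1 CPM in PAS controls. The CDS knockouts were tightly grouped inside the wider range of their controls, and 3 of 4 PAS knockouts lay below every PAS control. The log2 change of Sesn2 was -0.05 ± 0.07 (SE) in the CDS line, and -0.09 ± 0.08 for the PAS line, with fold intervals of 0.874 to 1.07 and 0.84 to 1.06 (Benjamini-Hochberg adjusted p = 1 and 0.992, edgeR's quasi-likelihood test).

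Sesn3 (ENSMUSG00000032009.9, plus strand of chromosome 9, 14186363 to 14244397) had 133, 134, 139 and 132 CPM in CDS knockouts, against 140, 131, 138 and 140 CPM in CDS controls. It had 135, 139, 140 and 149 CPM in PAS knockouts, against 133, 140 and 137 CPM in PAS controls. All libraries lay close together, with PAS knockout 4 alone above the rest. This gene gave the narrowest fold intervals of the group, 0.926 to 1.03 in the CDS line and 0.968 to 1.09 in the PAS line, around log2 changes of -0.03 ± 0.04 and 0.04 ± 0.04 (SE; Benjamini-Hochberg adjusted p = 1 and 0.992, edgeR's quasi-likelihood test). Its span overlaps those of 2 models on the opposite strand, and the counting set no strand option. Whether their exons overlap, and whether reads were shared, was not examined.

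Eif4ebp1 codes for 4E-BP1, a translation repressor known as an ATF4 target in pancreatic beta cells. It lies on chromosome 8 from 27750357 to 27766702 on the plus strand (ENSMUSG00000031490.7) and overlaps 1 opposite-strand model. CDS knockouts had 53.7, 51.0, 46.2 and 52.2 CPM, against 56.0, 64.4, 49.7 and 49.9 CPM in CDS controls. PAS knockouts had 47.8, 55.1, 50.5 and 47.0 CPM, against 50.7, 49.2 and 53.4 CPM in PAS controls. CDS control 2 was the highest of all libraries and CDS knockout 3 the lowest, with the other CDS libraries intermixed, and PAS knockouts fell on both sides of the PAS controls. The log2 change was -0.11 ± 0.07 (SE) in the CDS line, and -0.03 ± 0.08 for the PAS line, with fold intervals of 0.829 to 1.03 and 0.868 to 1.11 (Benjamini-Hochberg adjusted p = 1 and 0.999, edgeR's quasi-likelihood test). In 1 of 15 alternatives for the CDS line the unadjusted p was under 0.05.

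Eif4ebp2, which codes for 4E-BP2 (ENSMUSG00000020091.17, chromosome 10 from 61264270 to 61288440, minus strand, overlapping 1 model on the same strand), is the best counted of the 10 genes. Its level was 222, 217, 210 and 218 CPM in CDS knockouts, against 222, 201, 226 and 224 CPM in CDS controls, and 218, 206, 227 and 229 CPM in PAS knockouts, against 208, 236 and 218 CPM in PAS controls. Knockouts and controls were intermixed in both lines, with PAS knockout 2 just under its controls. Log2 changes were -0.01 ± 0.05 (SE) in the CDS line, and -0.01 ± 0.05 for the PAS line, with fold intervals of 0.93 to 1.06 and 0.928 to 1.07 (Benjamini-Hochberg adjusted p = 1 and 0.999, edgeR's quasi-likelihood test).

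Stc2 codes for stanniocalcin 2, a secreted glycoprotein induced by endoplasmic reticulum stress (ENSMUSG00000020303.3, chromosome 11 from 31307307 to 31320074, minus strand, 1 opposite-strand model). Stc2 had 11.8, 11.6, 11.1 and 10.4 CPM in CDS knockouts, against 10.6, 11.7, 11.3 and 10.7 CPM in CDS controls, and 10.9, 10.4, 14.8 and 8.13 CPM in PAS knockouts, against 15.3, 12.4 and 10.8 CPM in PAS controls. CDS libraries nearly coincided, whereas PAS libraries spread widely, and PAS knockouts 2 and 4 lay below every PAS control. Its log2 change was 0.02 ± 0.13 (SE) in the CDS line, and -0.23 ± 0.15 for the PAS line, with fold intervals of 0.836 to 1.23 and 0.689 to 1.06 (Benjamini-Hochberg adjusted p = 1 and 0.986, edgeR's quasi-likelihood test). The PAS value depended on single libraries: it was -0.40 without PAS knockout 3, -0.34 without PAS control 3, -0.10 without PAS knockout 4 and -0.08 without PAS control 1, and none of these passed (lowest p over all alternatives 0.622, edgeR's quasi-likelihood test with adjustment by Benjamini-Hochberg). In 3 of 13 alternatives for the PAS line the unadjusted p was under 0.05.

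Vldlr codes for the very low density lipoprotein receptor, which takes up lipoproteins in heart and muscle and also binds reelin (ENSMUSG00000024924.15, chromosome 19 from 27193884 to 27231631, plus strand, 1 opposite-strand model). Its level was 106, 103, 75.4 and 92.4 CPM in CDS knockouts, against 104, 110, 101 and 92.9 CPM in CDS controls. It was 88.1, 129, 117 and 87.1 CPM in PAS knockouts, against 108, 89.1 and 122 CPM in PAS controls. CDS knockouts 3 and 4, the libraries with raised choroid plexus and liver markers, were the ones below every CDS control. Knockout 4 was so only barely, at 92.4 CPM beside 92.9 CPM in CDS control 4, although its sum of those markers was the higher (237 against 164 CPM). The log2 change was -0.11 ± 0.15 (SE) in the CDS line, with a fold interval of 0.736 to 1.17, and -0.01 ± 0.17 in the PAS line, with 0.77 to 1.27 (Benjamini-Hochberg adjusted p = 1 and 0.999, edgeR's quasi-likelihood test). Without CDS knockouts 3 and 4 the CDS value was 0.04, and the part of the marker signal in the difference was not tested.

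Gdf15 codes for a hormone of the TGF-beta family that lowers appetite through the receptor GFRAL (ENSMUSG00000038508.8, chromosome 8 from 71082043 to 71085106, minus strand, 1 opposite-strand model). It had 24, 27, 15 and 19 counts in CDS knockouts, against 18, 22, 14 and 29 in CDS controls, and 6, 17, 14 and 12 counts in PAS knockouts, against 12, 11 and 13 in PAS controls. Pooled by group these were 0.56 CPM (95% Poisson interval 0.447 to 0.692) in CDS knockouts, 0.578 (0.46 to 0.716) in CDS controls, 0.456 (0.337 to 0.602) in PAS knockouts and 0.494 (0.346 to 0.684) in PAS controls. PAS knockout 1 was the lowest library, and the groups overlapped. The log2 change was -0.05 ± 0.29 (SE) in the CDS line, and -0.12 ± 0.36 for the PAS line, with fold intervals of 0.641 to 1.46 and 0.55 to 1.55 (Benjamini-Hochberg adjusted p = 1 and 0.999, edgeR's quasi-likelihood test). The Poisson intervals here and for Nupr1 cover counting error only.

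Nupr1 codes for a small chromatin protein of the stress response (ENSMUSG00000030717.10, chromosome 7 from 126222421 to 126230033, minus strand, 1 opposite-strand model), and with 80 counts over all libraries it did not pass the filter on low counts. It had 8, 8, 2 and 10 counts in CDS knockouts, against 0, 5, 9 and 5 in CDS controls, and 2, 7, 3 and 7 counts in PAS knockouts, against 4, 3 and 7 in PAS controls. The 0 in CDS control 1 allows up to 0.0997 CPM, taking 3 counts as the limit. Pooled levels were 0.184 CPM (95% Poisson interval 0.123 to 0.267) in CDS knockouts, 0.132 (0.0797 to 0.207) in CDS controls, 0.177 (0.106 to 0.276) in PAS knockouts and 0.192 (0.105 to 0.322) in PAS controls. In a fit without the filter its log2 change was 0.49 ± 0.59 (SE) in the CDS line, and -0.13 ± 0.68 for the PAS line (Benjamini-Hochberg adjusted p = 0.983 and 1, edgeR's quasi-likelihood test). The 95% fold intervals were 0.628 to 3.13 in the CDS line and 0.363 to 2.29 in the PAS line. Differences in Nupr1 within these bounds could not be resolved at this depth.

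Because Atf4 counts moved in opposite directions under the labels, the changes of the lines were also compared with each other and averaged. The difference between the changes (CDS minus PAS) passed the test for 1 gene of 20269 (0.00493%), Atf4 itself, at a log2 difference of -2.92 ± 0.08 (SE; Benjamini-Hochberg adjusted p = 3.88e-17, edgeR's quasi-likelihood test). For the 9 tested genes this difference ran from -0.11 ± 0.12 (Ddit4) to 0.29 ± 0.42 (Trib3), with Stc2 at 0.25 ± 0.20, and all had a p of at least 0.995 in edgeR's quasi-likelihood test after adjustment by Benjamini-Hochberg. Over all genes 843 had an unadjusted p under 0.05, and of these 9 genes 0 did. No gene of the group was thus shown to respond differently to the deletions.

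The mean change over both lines passed for 16 genes (0.0789%) and for none of the 9, of which 2 were positive and 7 negative with a median log2 value of -0.07. The largest positive value was that of Ddit4, 0.10 ± 0.06 (SE), and the largest negative was that of Trib3, -0.11 ± 0.21; an unadjusted p under 0.05 was reached by 750 genes and by 0 of the 9. Atf4 itself, with opposite changes in the lines, had a mean log2 change of only 0.10 ± 0.04 (SE). A change that followed Atf4 counts would likewise largely cancel in the mean. Its fold intervals, narrower than those of either line, therefore bound only a change of the same direction under both knockout labels. These intervals were 0.963 to 1.04 for Sesn3, 0.948 to 1.04 for Eif4ebp2, 0.884 to 1.03 for Sesn2, 0.877 to 1.03 for Eif4ebp1 and 0.987 to 1.17 for Ddit4. They were wider for Stc2 (0.806 to 1.08), Vldlr (0.808 to 1.14), Trib3 (0.682 to 1.25) and Gdf15 (0.679 to 1.31).

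Controls of the lines were compared as well, although line, depth and counting run cannot be told apart there. PAS controls differed from CDS controls for 29 genes (0.143%), none of them from the group. An unadjusted p under 0.05 was reached by 1945 genes (9.6%) and by 1 of the 9, which is near that share. Ddit4 was the one gene of the 9 with an unadjusted p under 0.05: it averaged 22.8 ± 1.73 CPM in PAS controls (SD, n = 3) and 26.8 ± 2.16 CPM in CDS controls (SD, n = 4), a log2 difference of -0.23 ± 0.09 (SE; Benjamini-Hochberg adjusted p = 0.381, edgeR's quasi-likelihood test). Over the alternatives its lowest adjusted p was 0.0552, without the count filter, by the same test. Elsewhere the difference ran from -0.22 ± 0.34 (Gdf15) to 0.22 ± 0.15 (Stc2).

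The genes differed in how much they varied between libraries of a group. Vldlr had a within-group SD of 0.22 on the log2 scale, against a median of 0.06 for the 1001 genes closest in level, and Stc2 had 0.22 against 0.12. Trib3 had 0.44 against 0.26, Ddit4 0.13 against 0.08 and Eif4ebp1 0.12 against 0.07. Sesn3 (0.05 against 0.06), Sesn2 (0.10 against 0.10), Eif4ebp2 (0.07 against 0.06) and Gdf15 (0.34 against 0.41) were close to genes of their level. After group means were subtracted, deviations over the 15 libraries correlated most between Eif4ebp1 and Vldlr (Pearson r = 0.73) and between Vldlr and Gdf15 (0.68). They correlated least between Eif4ebp1 and Eif4ebp2 and between Eif4ebp1 and Sesn3 (-0.56 each). These correlations share libraries and depth and are descriptions.

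For the 3 genes with the highest counts, the genes of most similar pattern were sought among 12479 named genes in the same deviations (n = 15 libraries). Nearest to Eif4ebp2 were Mtss1 (Pearson r = 0.95), Ago2 (0.94) and Flnc (0.94). Nearest to Sesn3 were Slc29a3 (0.91), Pou2f1 (0.91) and Unkl (0.87). For Vldlr they were Dnajc9 (0.92), Ivns1abp (0.91) and Sgcd (0.91).

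Within their families, the members' shares of the message were counted per kilobase of exon over the 15 libraries. Sesn3 held 41.2 ± 1.31% of the sestrin message, Sesn1 35.2 ± 1.66% and Sesn2 23.5 ± 1.3% (SD, n = 15). Eif4ebp2 held 61.1 ± 2.59% of the 4E-BP message, Eif4ebp1 38.0 ± 2.67% and Eif4ebp3 0.87 ± 0.331%. Trib3 was the minor tribbles gene at 3.49 ± 1.03%, beside 82.0 ± 1.28% for Trib2, and Stc2 held 33.8 ± 3.97% of the stanniocalcin message, the rest being Stc1. Over single libraries the Trib3 share ran from 2.29 to 5.38%, and the Stc2 share from 25.2 to 41.3%.

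By group, the Sesn2 share was 23.3 ± 0.248% in CDS knockouts and 23.8 ± 2.11% in CDS controls, and 22.7 ± 0.549% in PAS knockouts and 24.6 ± 1.11% in PAS controls (SD, n = 4, 4, 4 and 3). The Eif4ebp2 share was 61.3 ± 0.937% in CDS knockouts and 59.7 ± 4.13% in CDS controls, and 62.0 ± 2.63% in PAS knockouts and 61.5 ± 2.11% in PAS controls. Trib3 stood at 3.58 ± 1.34%, 3.58 ± 0.814%, 3.19 ± 1.19% and 3.65 ± 1.19% of the tribbles message in CDS knockouts, CDS controls, PAS knockouts and PAS controls. Set against the message of their target Eif4e, the summed Eif4ebp1 and Eif4ebp2 message per kilobase stood at a ratio of 2.72 ± 0.0488 in CDS knockouts and 2.79 ± 0.0547 in CDS controls, and at 2.81 ± 0.0597 in PAS knockouts and 2.92 ± 0.196 in PAS controls (SD). Knockout and control means differed by less than the larger SD of the pair in each of these cases except the Sesn2 share in the PAS line and the Eif4e ratio in the CDS line, and these ratios and shares were not tested.

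**Figure D3:**
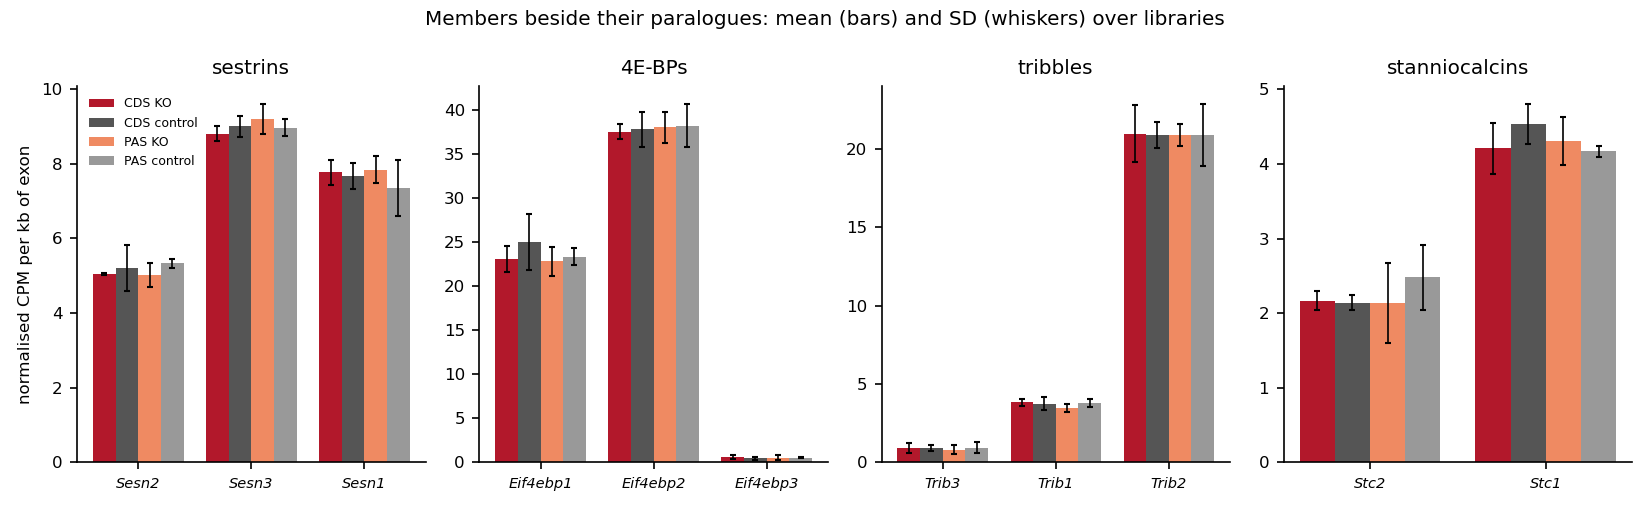
Mean normalised CPM per kb of exon (bars, from 0) with SD (whiskers) for the sestrin, 4E-BP, tribbles and stanniocalcin genes in CDS knockout, CDS control, PAS knockout and PAS control ventricles. Eif4ebp2, Sesn3, Trib2 and Stc1 are the highest of their families in all 4 groups.

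Further lists place these genes in their pathways; a gene counts as called only past edgeR's quasi-likelihood test at a Benjamini-Hochberg adjusted p under 0.05. Of 16 other outputs of ATF4 and the integrated stress response, 15 could be tested and 0 were called in either line or in the mean. In the CDS line 6 were positive and 9 negative (median log2 -0.03, 0 at an unadjusted p under 0.05), and in the PAS line 3 were positive and 12 negative (median -0.11, 7 at an unadjusted p under 0.05, which 5.24% of all tested genes reached). Those 7 were all negative. In the mean over both lines 3 were positive and 12 negative (median -0.08). An unadjusted p under 0.05 was reached there by 5, and by 3.7% of all tested genes. Without CDS knockouts 3 and 4 it was reached in the mean by 6, and by 3.04% of all genes. The most abundant were Vegfa, a growth factor for vessels, with 0.08 in the CDS line, and -0.09 for the PAS line, and Sqstm1, an autophagy receptor, with -0.03 and 0.06. Chosen after its values were seen, Atf5, a transcription factor related to ATF4, had the lowest adjusted p of the list: it averaged 18.6 ± 1.33 CPM in PAS knockouts and 23.1 ± 0.975 CPM in PAS controls (SD), a log2 change of -0.31 ± 0.08 (SE; Benjamini-Hochberg adjusted p = 0.657, edgeR's quasi-likelihood test), with 0.253 for the mean over both lines.

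None of the mTORC1 machinery downstream or upstream of these brakes was called in either line. The 15 genes of the mTORC1 core and its outputs had 7 positive and 8 negative values in each line (medians -0.01 and -0.01), led in abundance by Eif4g1, a scaffold of the cap-binding complex (-0.02 in both), and Rps6, a ribosomal protein phosphorylated downstream of mTORC1 (0.00 and -0.02). The 11 genes of the TSC complex and AKT had 1 positive and 10 negative in the CDS line and 4 and 7 in the PAS line, with medians of -0.02 in both; Akt1 stood at -0.05 and -0.04 and Prkaa2, an AMPK subunit, at -0.08 and 0.06. The 25 genes of GATOR and Rag amino acid sensing had 7 positive and 18 negative in the CDS line and 13 and 12 in the PAS line (medians -0.02 and 0.00), with Rragd at -0.09 and 0.01 and Sec13 at -0.05 and 0.04. The 9 paralogues of the group had 6 positive and 3 negative in the CDS line and 4 and 5 in the PAS line, among them Trib2 (0.01 and 0.00).

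Other inputs to these genes were counted in the same way. Among 12 genes induced by hypoxia, a known inducer of Ddit4, 0 were called in either line; 7 were positive and 5 negative in the CDS line and 1 and 11 in the PAS line (medians 0.02 and -0.06), with Pgk1 at -0.01 and -0.04 and Slc2a1 at -0.05 and -0.15. All 12 were higher in PAS controls than in CDS controls (median 0.13, 0 called). An unadjusted p under 0.05 was reached there by 2 of them and by 9.6% of all tested genes. Hypoxia genes were not alone in this: of the 25 GATOR and Rag genes, 7 were positive and 18 negative there (median -0.03, 0 called), 8 of the 25 at an unadjusted p under 0.05. Line, depth and counting run cannot be told apart in that comparison. FoxO-linked genes, 10 in number, split evenly in the CDS line and 4 to 6 in the PAS line (medians -0.01 and -0.03, 0 called), with Trim63 at -0.05 and -0.11 and Fbxo32 at 0.04 and -0.04. Without CDS knockouts 3 and 4 the hypoxia list had 11 positive and 1 negative in the CDS line (median 0.05, 0 called), and none of the other lists gained a call there. Of 8 partners of GDF15, VLDLR and reelin, 6 could be tested and 0 were called, with Lrpap1 at -0.03 and 0.01 and Reln at 0.05 and -0.04.

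The p53 targets were listed because Sesn2, Gdf15 and Ddit4 are also known p53 outputs. They were the one list with called genes. Since the lists were chosen with earlier results of these data known, this is a description and not independent support. In the CDS line all 14 were positive (median log2 0.09) and 0 were called, with 4 at an unadjusted p under 0.05 (2.62% of all genes), and in the PAS line 8 were positive and 6 negative (median 0.07, 0 called, 4 at an unadjusted p under 0.05, against 5.24% of all genes). In the mean over both lines 12 were positive and 2 rose past the test, which 0.0789% of all genes passed. Cdkn1a, the cell cycle inhibitor p21, averaged 26.3 ± 1.63 CPM in CDS knockouts, against 19.9 ± 2.43 CPM in CDS controls, and 25.1 ± 2.54 CPM in PAS knockouts and 20.3 ± 1.23 CPM in PAS controls (SD), a mean log2 change of 0.36 ± 0.06 (SE; Benjamini-Hochberg adjusted p = 0.00964, edgeR's quasi-likelihood test). Eda2r, a death domain receptor for ectodysplasin A2, averaged 10.4 ± 1.72 CPM in CDS knockouts, against 7.02 ± 0.464 CPM in CDS controls, and 8.70 ± 1.14 CPM in PAS knockouts and 6.86 ± 0.487 CPM in PAS controls, a mean log2 change of 0.46 ± 0.08 (SE; Benjamini-Hochberg adjusted p = 0.0256, edgeR's quasi-likelihood test).

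These calls were not equally stable. Cdkn1a stayed past the threshold in all but 2 of 21 alternatives, the fits without PAS control 1 (0.0687) and without CDS knockouts 3 and 4 (0.0501; Benjamini-Hochberg adjusted p of edgeR's quasi-likelihood test). Eda2r lost its call in 13 of 21, with adjusted p from 0.0558 to 0.593: under limma-voom, with a block for the replicate number, without CDS knockouts 3 and 4 together, and without any one of CDS knockouts 2 and 3, CDS controls 1, 2 and 4, PAS knockouts 2 and 4 and the 3 PAS controls. Its log2 change stayed between 0.40 and 0.49. Without CDS knockouts 3 and 4 all 14 targets were still positive in the CDS line (median 0.11, 0 called, 3 at an unadjusted p under 0.05, which 1.6% of all genes reached). The mean counts the PAS change in the direction of its labels; the difference between the lines, which turns that direction round, was 0.10 ± 0.12 for Cdkn1a and 0.22 ± 0.17 for Eda2r (SE; Benjamini-Hochberg adjusted p = 0.995 for both, edgeR's quasi-likelihood test). Beside these values, Sesn2, Gdf15 and Ddit4 had mean log2 changes of -0.07 ± 0.05, -0.08 ± 0.23 and 0.10 ± 0.06 (SE).

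**Figure D4:**
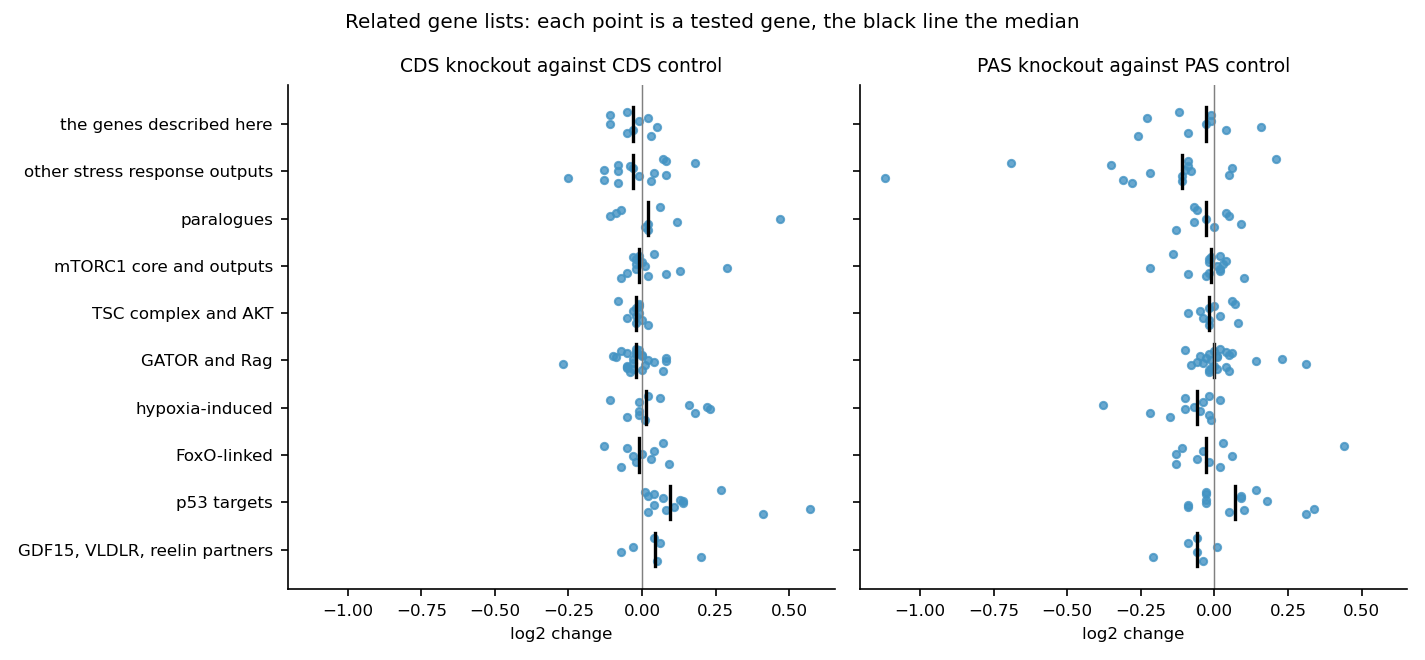
Log2 change of knockout over control (horizontal axes) for each tested gene (points) of the 10 genes and of 9 related lists, with the list median as a black line, in the CDS line (left panel) and the PAS line (right panel). Medians lie near 0 in both panels, and the p53 targets are the list whose points all lie right of 0 in the CDS line.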

How the data were processed

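Raw counts of read pairs were deposited by the authors for each gene. Per the file headers, featureCounts 2.1.1 summed them over the exons of GENCODE M37 (GRCm39) without a strand option, in a separate run for each line. HISAT2 2.2.1, STAR 2.7.11b, fastp, FastQC and DESeq2 stand in the submitters' processing notes beside the builds GRCm38 and GRCm39, and these notes do not say which aligner made these files. Gene names were matched by identifier to GENCODE release M21 for 51487 of 78317 identifiers, holding 98.85% of counts. Library protocols conflict: the design text names poly(A) selection with a stranded kit, the extraction protocol rRNA depletion.

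Tests used edgeR 4.0.16 in R 4.3.3: filterByExpr with a minimum count of 10 (20269 genes left), TMM factors (0.986 to 1.01), 1 fit of all 15 libraries with a mean per group (11 residual degrees of freedom), the robust quasi-likelihood test and Benjamini-Hochberg adjustment over all genes, called under 0.05. SEs were derived from the F statistic, and 95% intervals from it and the fit's degrees of freedom. The biological coefficient of variation was 7.44%. Over 21 replicate pairs the chi-square per degree of freedom was 3.38 to 62.1, above sampling noise in every pair; the 3 highest values all involve CDS knockout 3. The code was tested on simulated counts. The 10 genes, the lists and the alternatives were chosen with earlier results of these data known. Named genes are all 10, Atf4, from each list every called gene (up to 4) or else the 2 most abundant, and the 3 genes of most similar pattern (log2 CPM with a prior count of 2, mean CPM of at least 1) for the 3 most abundant of the 10; 1 gene that this rule names is not reported here. DESeq2 1.42.0, limma 3.58.1 (voom), other size factors, no filter, the compared groups alone, a replicate block, and each library left out were the alternatives. RefSeq promoter windows are on GRCm38.p6, and other coordinates on GRCm39 as in the files.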

Additional observations from a re-analysis of the deposited data

Results flagged for a closer look

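In Ddit4, CDS knockout 2 stood apart from the other CDS knockouts at 28.4 CPM, with a gap of 0.83 of the group's range, although the whole group spans 27.3 to 28.4 CPM. In Eif4ebp2, CDS control 2 stood apart at 201 CPM, with a gap of 0.865 of the range, below the other CDS controls at 222, 226 and 224 CPM. These were 2 of 33 groups of 4 examined with Dixon's ratio, whose critical value is 0.829 and which flags about 1 group in 20 by chance. The change of Atf4 differed between the lines, with a log2 difference of -2.92 (CDS minus PAS) that passed edgeR's quasi-likelihood test.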

How the results depend on the processing

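Over 22 settings, 747 changes of the 9 tested genes were recomputed, and 0 of them passed the threshold. All moved by less than the gene's SD between libraries of a group. That limit is lenient, because a fit with 1 library left out keeps most of its data. Within it, the PAS value ran from -0.52 to -0.06 for Trib3 and from -0.40 to -0.08 for Stc2. Without CDS knockouts 3 and 4 the CDS values lay between -0.07 (Eif4ebp1) and 0.19 (Trib3). Counts over all genes moved more. Without the count filter they were 31 in the CDS line, 7 in the PAS line, 3 for the difference between lines, 28 for the mean change and 201 for PAS controls against CDS controls. DESeq2 gave 20, 7, 2 and 102 for the CDS line, the PAS line, the difference and the controls, and limma-voom gave 2 for the difference. A fit of the compared groups alone gave 1 in the PAS line and 10 for the controls. The block for the replicate number gave 1 in the PAS line and 8 for the mean, and called 0 of the 9 genes tested. Deviations of same-numbered libraries had correlations of -0.65 to 0.22 within lines. Such correlations cannot tell whether the numbers mark pairs, because other variation between libraries enters them too. Without CDS knockouts 3 and 4 the mean change passed for 10 genes, and 9 passed in the CDS line. With 1 library left out at a time, counts were 10 to 12 in the CDS line, 2 to 3 in the PAS line, 1 to 2 for the difference (2 without CDS knockout 4 or PAS knockout 4), 11 to 16 for the mean and 15 to 43 for the controls (15 without PAS control 1). The cause of these shifts was not tested. Low counts limit Gdf15 and Nupr1, and for Trib3 the spread between libraries exceeded that of genes of its level.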
